A study of Mus musculus with 2 samples.

Results

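Homologous recombination and Fanconi repair were followed through 33 genes, taken by symbol from a list of names, out of the 49492 genes in a count table of 3D cultures grown from sorted mouse mammary basal cells. All 33 symbols were found in the table. Homologous recombination mends a DNA double-strand break by copying the intact sister chromatid: the break is sensed and its ends are trimmed, BRCA1 and BRCA2 with their partners prepare the trimmed strand, and further factors carry out strand exchange and its resolution. The Fanconi pathway uses a ubiquitin ligase complex to activate FANCD2 and FANCI at crosslinked DNA and hands the resulting break to recombination. Both act mainly in S and G2 phase, and inherited loss of BRCA1, BRCA2 or PALB2 predisposes the human mammary gland to cancer.

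The cells were wild type (WT) primary epithelial cells from the mammary gland of adult female mice, sorted by flow cytometry as basal cells and grown in 3D culture in matrix gel, in a medium that held EGF and ITS. The control group was left untreated, and the TNF-α group received recombinant mouse TNF-α, an inflammatory cytokine made by macrophages, at 10 ng/mL. The design text gives 10 days of culture where the methods give 7 to 14 days, and it speaks of a microarray although the table holds sequencing counts. Each group had 1 library, and nothing says whether they shared animals or a cell preparation. The differences below therefore have no replicate check.

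In total 44462275 counts fell on genes for the control and 53487087 for TNF-α. The 20771 genes with at least 10 counts over both libraries were each given a log2 ratio, TNF-α over control. It was taken from CPM, the counts scaled to a common library size, after TMM scaling and with a prior count of 2. All 33 members passed this filter. The 95% intervals printed with the ratios come from the Clopper-Pearson interval of the TNF-α share of a gene's counts. These intervals take each read as independent, and amplified reads that carry no molecular identifier are not independent molecules. Intervals and count floors thus cover counting error at most, and the intervals can be too narrow even for that. A gene is called higher or lower here when it lies past a stated fold, a description of 1 library beside another rather than a test.

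Basal cell transcripts were abundant in both libraries. Krt14, a keratin of basal cells, had 229766 counts in the control and 259922 with TNF-α, a log2 ratio of -0.08, and Trp63, a transcription factor of the same cells, had 9329 and 11400, a ratio of 0.03. Of 9 basal markers, 4 had a ratio above 0, and their sum was 12153 CPM in the control and 11244 CPM with TNF-α, with Krt14 the most abundant. Past 1.5-fold lower lay 2 of them, Oxtr at -1.19 and Cnn1 at -0.74. Luminal markers were present as well, led by Krt8, and all 10 had a ratio below 0, their sum going from 3681 to 2612 CPM. Their median was -0.89, with 8 past 1.5-fold lower and 3 past 2-fold lower (Pgr, Esr1 and Prlr). Of 8 leukocyte markers, 5 passed the count filter, of which 1 had a ratio above 0, and the list summed to 8.24 CPM in the control and 6.54 CPM with TNF-α, led by Lyz2, with Cd3e at 0 counts in both. The 4 endothelial markers summed to 7.07 and 6.67 CPM, led by Pecam1 in the control and Cdh5 with TNF-α, with 1 of 4 above 0. The 6 fibroblast markers summed to 499 and 486 CPM, led by Col1a2, with 4 of 6 above 0, Dcn past 2-fold higher at 1.39 and Col3a1 past 1.5-fold lower at -0.66. In bulk RNA, fewer cells of a type and less RNA per cell cannot be told apart, and the part of these shifts in the values of the repair genes was not tested.

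Most of the repair genes had a higher CPM with TNF-α. Of the 33 members, 28 had a log2 ratio above 0, where 50.6% of all genes tested did, and of the 28 Rad50 changed sign under total counts and upper quartile scaling and Nbn after a correction for GC content and length. The counting interval lay wholly above no change in 21 members (28.9% of all genes tested) and wholly below it in 3 (27.8% of all genes tested). For the other 9 members the interval included no change. Small counts were even more often than odd, in 74.4% of control genes and 75.6% of TNF-α genes with 1 to 20 counts, so intervals were also taken on counts divided by 2. These lay above no change in 18 members (22.7% of all genes tested). The median log2 ratio was 0.32, with quartiles of 0.11 and 0.72, beside a median of 0.0038 for all genes tested, whose quartiles were -0.29 and 0.31.

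Past 1.5-fold higher lay 10 of the 33 members, where the share of all genes tested was 15.5%. These were Bard1, Exo1, Brip1, Rad51ap1, Brca1, Fancb, Blm, Rad54b, Fancd2 and Xrcc2. Past 2-fold higher lay 2 members, Bard1 and Exo1, where the share of all genes tested was 8.56%. That share of the members, 2 of 33, was near the background. Past 1.5-fold lower lay 0 members, against 13.7% of all genes tested. Rarely counted genes widen the background, so the comparison was repeated with well counted genes. Among genes with at least 200 counts over both libraries, 10 of 30 members lay past 1.5-fold higher (9.13% of such genes) and 2 of 30 past 2-fold higher (4.01% of such genes). For 7 members the lower bound of the interval itself passed 1.5-fold (7.17% of all genes tested), and for 1, Bard1, it passed 2-fold (3.74% of all genes tested). With counts divided by 2, the lower bound of Bard1 was a log2 ratio of 0.97, short of 2-fold. That of Blm was then 0.576, short of 1.5-fold at 0.585.

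**Figure D1:**
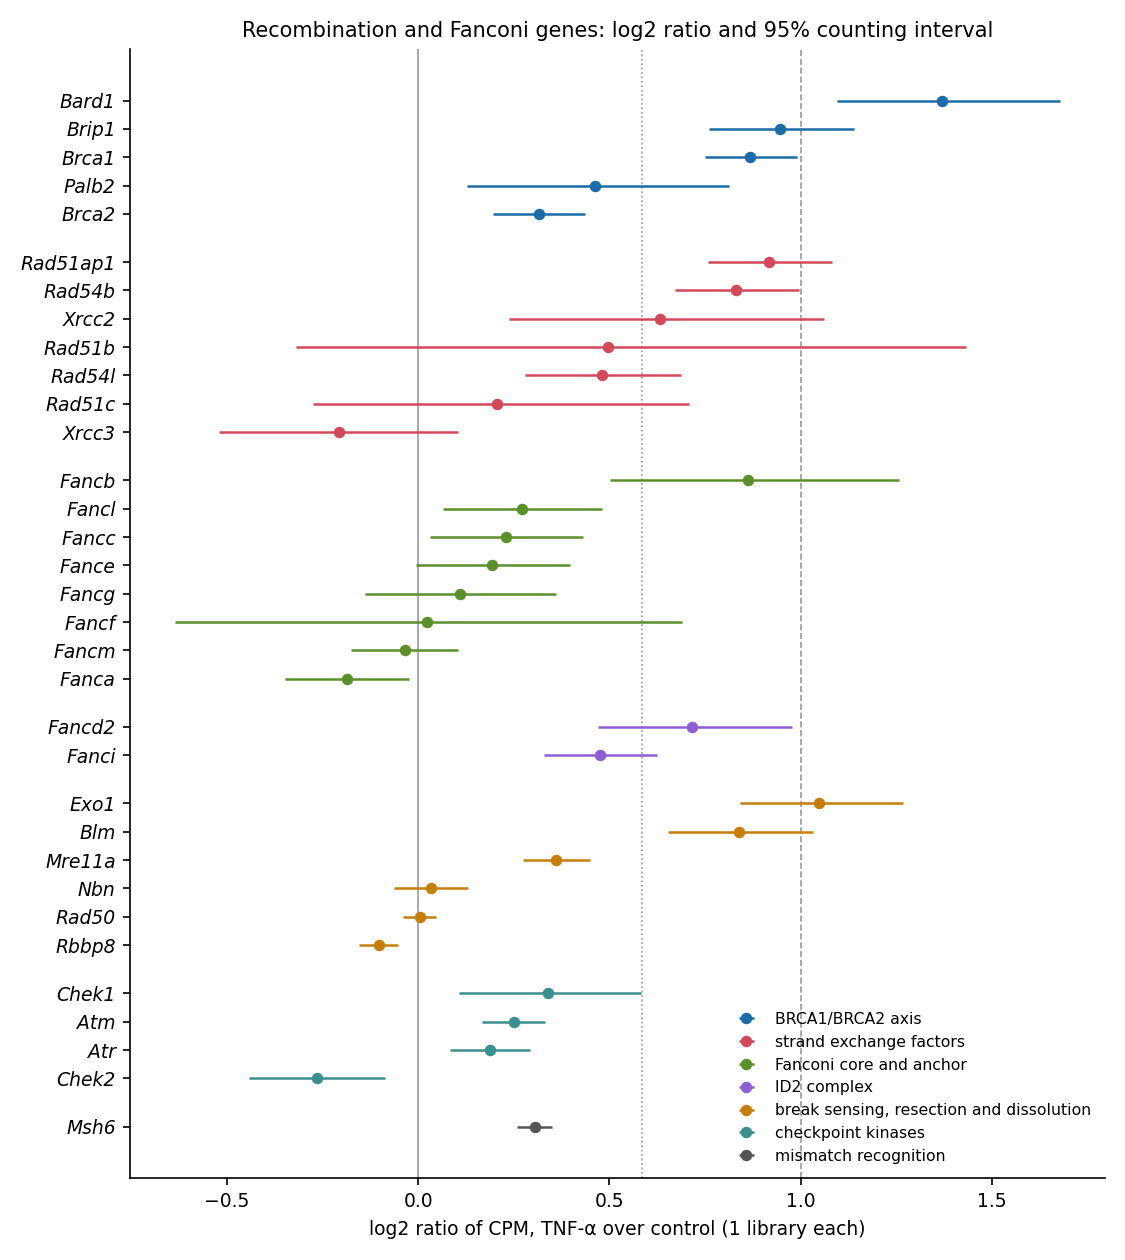
Log2 ratio of CPM, TNF-α over control, for the 33 members grouped by role; points are ratios from 1 library each and bars are 95% counting intervals. The solid, dotted and dashed lines mark no change, 1.5-fold and 2-fold higher, and Bard1 is the member whose bar lies wholly past 2-fold. With counts divided by 2, not drawn here, the lower bound of Bard1 was 0.97, short of 2-fold.

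The transcripts differed far more among members than between libraries. Levels of different genes were compared as RPKM, CPM per kilobase of summed exon length, and the highest was 140 times the lowest in the control and 116 times with TNF-α. Rad50, Rbbp8 and Msh6 stood at the top, at 33.6, 33.5 and 32.8 RPKM in the control. These 3 genes held 56.5% of the members' counts in the control and 51.4% with TNF-α. At the bottom was Rad51b, at 0.240 RPKM in the control and 0.348 with TNF-α. The members' counts summed to 797 CPM in the control and 923 CPM with TNF-α, a log2 ratio of 0.21 (95% interval 0.19 to 0.23). Without the 3 abundant genes the sums were 347 and 449 CPM, a log2 ratio of 0.37 (0.34 to 0.40), so the summed change was smaller with them included.

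The most abundant members had the lowest median ratio. Bins of mean level, set after the values were seen, were used to show this. At 5 RPKM or more were Rad50, Rbbp8, Msh6, Nbn and Mre11a, whose median was 0.03 with 0 past 1.5-fold higher (7.91% of all genes tested at that level). The 20 genes from 1 to 5 RPKM had a median of 0.29 with 6 past 1.5-fold higher (13.9% of all genes tested at that level). The 8 genes under 1 RPKM had a median of 0.56 with 4 past it (25.1%), so the background share also grew as the level fell. Across the 33 genes, Spearman's rho of the log2 ratio was -0.32 with mean level, 0.28 with exon length and -0.21 with GC content. These are descriptions over genes that share both libraries.

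**Figure D2:**
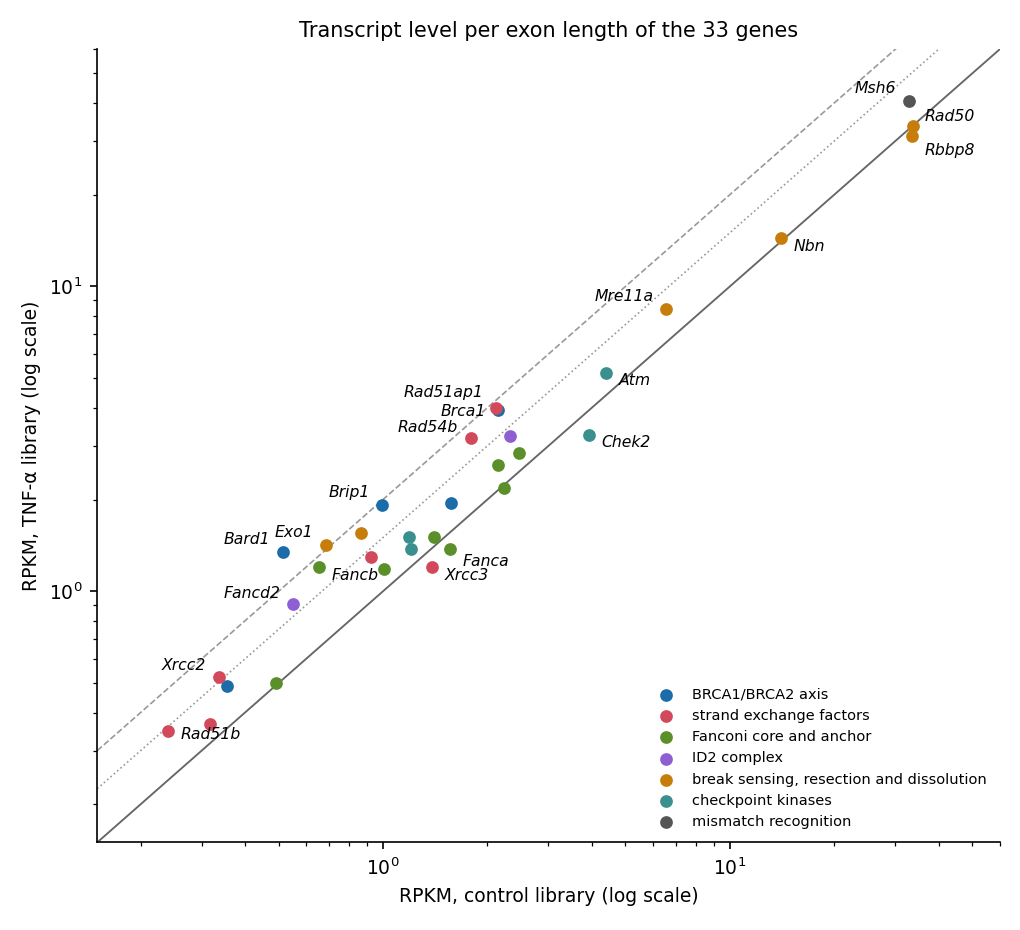
RPKM of the 33 members in the TNF-α library against the control library, both axes on a log scale, 1 point per gene and 1 library per group, with the solid, dotted and dashed lines marking equal levels, 1.5-fold and 2-fold. Rad50, Rbbp8 and Msh6 lie at the upper right, and 0 of the 5 genes with a mean of 5 RPKM or more lie past 1.5-fold.

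Of the roles with more than 2 genes, the BRCA1 and BRCA2 axis had the highest median, 0.87. All 5 of its genes had an interval above no change (28.9% of all genes tested). With counts divided by 2 there were 4 (22.7% of all genes tested), since the interval of Palb2 then included no change. Bard1, the obligate partner of BRCA1 in its RING ubiquitin ligase, had 130 counts in the control and 406 with TNF-α. This was 2.59-fold, a log2 ratio of 1.37 (95% interval 1.09 to 1.68), and 5.48% of all genes tested had a higher ratio. In GRCm38 the gene spans chromosome 1 from 71027498 to 71103146. Brip1, the helicase that binds the BRCT repeats of BRCA1 and is also known as FANCJ, had 330 and 763 counts, a log2 ratio of 0.95 (0.76 to 1.14). Brca1 itself, read from the minus strand of chromosome 11 (101488764 to 101551955), counted 817 in the control and 1788 with TNF-α, a log2 ratio of 0.87 (0.75 to 0.99). The BRCA1 side of the axis thus held the 3 genes past 1.5-fold (15.5% of all genes tested). Brca2, a mediator of strand exchange, had 955 and 1423 counts, a log2 ratio of 0.32 (0.20 to 0.44). Palb2, the bridge between BRCA1 and BRCA2, had 116 and 192 counts and a log2 ratio of 0.46. The intervals of Brca2 and Brca1 did not overlap, while that of Palb2, with fewer counts, reached those of both.

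Among the 7 strand exchange factors the ratios were spread from -0.21 to 0.92. Rad51ap1, whose product stimulates strand invasion, rose past 1.5-fold, from 453 counts to 1026, a log2 ratio of 0.92 (0.76 to 1.08). Rad54b, a DNA translocase of recombination, had 461 and 983 counts and a log2 ratio of 0.83 (0.67 to 0.995). Of its exon bases 35.8% are shared with Fsbp on the same strand, so its counts are uncertain. Its relative Rad54l had 318 and 532 counts, a log2 ratio of 0.48, with 15.4% of its exon bases shared with Lrrc41 on the opposite strand. The related genes Xrcc2, Rad51b, Rad51c and Xrcc3, whose products support the exchange, had fewer than 350 counts each over both libraries. Xrcc2 had 78 counts in the control and 146 with TNF-α, a log2 ratio of 0.63 (0.24 to 1.06). Rad51b had 19 and 33 counts, and Rad51c 62 and 86. Xrcc3 had 170 and 176 counts, the lowest ratio of the role at -0.21 (-0.52 to 0.10), or -0.12 corrected for GC content and length. For Rad51b, Rad51c and Xrcc3 a difference was not detectable at this depth.

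The Fanconi core complex, the ubiquitin ligase of the pathway, and its anchor FANCM had a median of 0.15 over 8 genes. Fancb, a subunit of the catalytic module encoded on the X chromosome (164980592 to 164997272), was the 1 of these 8 past 1.5-fold higher (15.5% of all genes tested). It had 87 counts in the control and 191 with TNF-α, a log2 ratio of 0.86 (0.50 to 1.26). Fancl, the RING subunit of the same module, had 323 and 467 counts and a log2 ratio of 0.27. The interval of Fancl lay above no change and ended at 0.48, just short of that of Fancb. With counts divided by 2 the intervals overlapped, and that of Fancl included no change. Fancc had 354 and 497 counts, Fance 351 and 481, Fancf 37 and 45, and Fancg 237 and 306, with log2 ratios from 0.02 to 0.23. Of these 4 genes, Fancc alone had an interval above no change, and with counts divided by 2 it too included no change. Fancm, a translocase that brings the core complex to DNA, had 775 and 905 counts and a ratio of -0.04. Fanca, a scaffold subunit, was the lowest with 610 and 642 counts, a log2 ratio of -0.19 (-0.35 to -0.02), whose interval included no change with counts divided by 2. Corrected for GC content and length, Fanca went to -0.07, Fance from 0.19 to 0.37 and Fancm to just above 0. Exon bases shared with another gene on the opposite strand made up 13.7% of Fancl (with Vrk2), 15.0% of Fancf (with Gas2) and 10.5% of Fanca (with Zfp276).

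FANCD2 and FANCI form the clamp that the core complex ubiquitinates. Fancd2 had 195 counts in the control and 385 with TNF-α, a log2 ratio of 0.72 (0.47 to 0.98). Fanci had 599 and 997 counts, a log2 ratio of 0.47 (0.33 to 0.62). Both lay above no change, with overlapping intervals. Exon bases shared with Polg on the opposite strand made up 16.0% of Fanci, and whether counting used the strand is not given in the sources used here.

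Break sensing and end trimming were divided. The MRN complex of MRE11, RAD50 and NBN binds broken ends first. Its gene Mre11a had 1734 and 2667 counts, a log2 ratio of 0.36 (0.27 to 0.45). Rad50 had 8052 and 9663 counts, a ratio of 0.0033 (-0.04 to 0.05), too near 0 for its sign to hold across scalings. Nbn had 1587 and 1943 counts and a ratio of 0.03, also too near 0 for its sign to hold. Rbbp8, which encodes the resection factor CtIP, had 5774 and 6435 counts, a ratio of -0.10 (-0.15 to -0.05). The nuclease and helicase of long-range trimming stood apart from these. Exo1, an exonuclease that digests the ends, had 257 counts in the control and 638 with TNF-α. On the level scale this was 0.685 and 1.42 RPKM. Its log2 ratio was 1.05 (0.84 to 1.27). Blm, the helicase that also dissolves double Holliday junctions, had 339 and 727 counts, a log2 ratio of 0.84 (0.65 to 1.03). The intervals of Exo1 and Blm lay above those of the other 4 genes of the role.

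The checkpoint kinases lay between -0.26 and 0.34. Chek1, the kinase that ATR activates at stalled forks, had 245 counts in the control and 372 with TNF-α, a log2 ratio of 0.34 (0.11 to 0.58). Chek2, the kinase that ATM activates at breaks, had 525 and 523 counts and the lowest ratio of all 33 members, -0.26 (-0.44 to -0.09). The effector kinases thus lay on opposite sides of no change, with intervals that did not overlap. Atm had 2023 and 2879 counts, a ratio of 0.25, and Atr had 1272 and 1734, a ratio of 0.19. Corrected for GC content and length, Atr went to 0.29, outside its interval. Msh6, which recognises mismatched bases, had 6220 and 9196 counts, a ratio of 0.30 (0.26 to 0.35). With 40.5 RPKM it was the most abundant member in the TNF-α library.

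Partners of a complex were also compared as a ratio of RPKM within each library, which does not depend on the scaling between libraries. Bard1 stood at 0.240 of Brca1 in the control (95% interval 0.198 to 0.289) and at 0.342 with TNF-α (0.307 to 0.382). These intervals did not overlap, though they did with counts divided by 2, and Bard1 was the lower of the pair in both libraries. Mre11a went from 0.195 of Rad50 (0.185 to 0.206) to 0.250 (0.240 to 0.261), while Nbn stayed at 0.418 and 0.427 of Rad50. Within the MRN complex the shift was thus in Mre11a, and its intervals stayed apart with counts divided by 2. Fancb went from 0.304 of Fancl (0.237 to 0.387) to 0.462 (0.389 to 0.548), intervals that overlapped with counts divided by 2. For Fancd2 over Fanci the ratios were 0.237 and 0.281, and for Palb2 over Brca2 0.226 and 0.251. The intervals of these last 2 pairs overlapped between libraries. Such ratios compare transcripts, not the proteins of a complex.

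Outside the 33 members, 14 other Fanconi genes were tested, 8 of them above 0. Their median was 0.05, or 0.16 corrected for GC content and length. Ube2t, the ubiquitin-conjugating enzyme that serves FANCL, was the 1 of them past 1.5-fold (15.5% of all genes tested were past 1.5-fold higher). It had 47 counts in the control and 145 with TNF-α, a log2 ratio of 1.33 (0.88 to 1.87). Fan1, a nuclease, was the lowest at -0.40.

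Genes that signal from the break had a lower median than the members. The 11 genes of BRCA1 complexes and break signalling had a median of -0.07, with 4 above 0, from -0.30 for Mdc1 to 0.23 for Rif1. Past 1.5-fold lay 0 of them in either direction (15.5% of all genes tested higher, 13.7% lower). The same list includes Trp53bp1, whose product opposes end trimming, at -0.07 (-0.12 to -0.02, chosen after its value was seen). The ATR and CHK1 axis around the kinases had a median of 0.26 over 12 genes, 10 of them above 0 and 2 past 1.5-fold higher (15.5% of all genes tested). Its highest gene was Clspn, the adaptor through which ATR activates CHK1, at 0.73, and its lowest Rad17 at -0.11. The 3 genes of RPA, the protein that coats single-stranded DNA, had a median of 0.36, above that of the members, and ran from 0.10 for Rpa1 to 0.49 for Rpa3. Corrected for GC content and length, this order turned, with medians of 0.368 for RPA and 0.369 for the members.

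The other repair pathways mostly had smaller medians than the members. For the calls below, the shares of all genes tested were 15.5% past 1.5-fold higher, 13.7% past 1.5-fold lower and 8.56% past 2-fold higher. End joining had a median of 0.10 over 12 genes, or 0.06 over those with at least 100 counts. Polq, the polymerase of theta-mediated joining, was the 1 gene of this list past 2-fold, at 1.06 (0.87 to 1.26, 298 counts against 745). Poll was the lowest at -0.38. Nucleotide excision repair had a median of -0.02 over 18 genes, from -0.48 for Ercc2 to 0.31 for Ercc3, and 0 lay past 1.5-fold. Translesion synthesis had a median of 0.02 over 8 genes, from Poli at -0.21 to Rad18 at 0.38. Base excision repair had 0.19 over 18 genes with 3 past 1.5-fold higher, from Neil1 at -0.35 to Neil3 at 0.89. Targets of p53 in the damage response had a median of 0.04 over 17 genes, 3 past 1.5-fold higher, from Zmat3 at -0.56 to Pmaip1 at 1.08, with Fas also past 2-fold at 1.01.

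**Figure D3:**
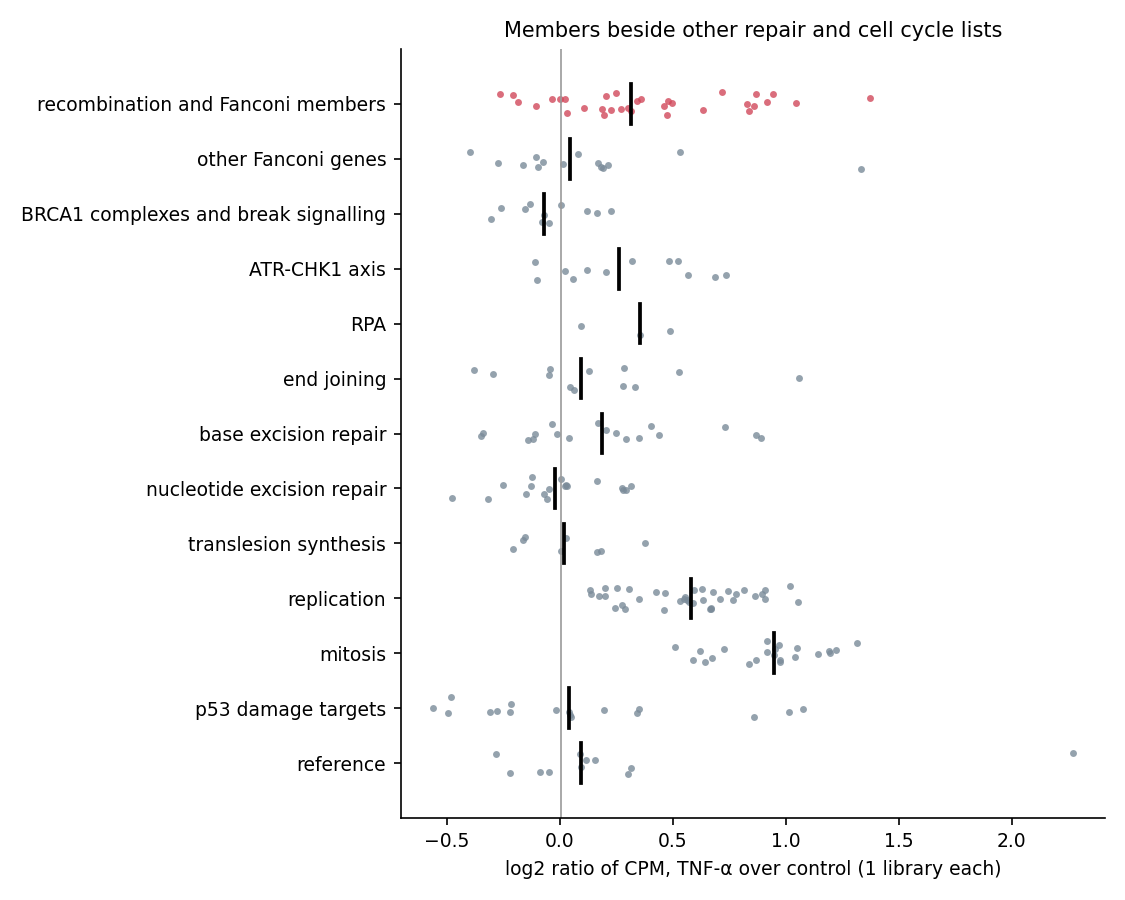
Log2 ratio of CPM, TNF-α over control, for each gene of 13 lists (points, 1 library per group, scattered vertically for legibility), with black bars at the list medians and a grey line at the median of all genes tested. The members' median of 0.32 lies between those of most repair lists and those of replication (0.58) and mitosis (0.95).

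Genes of the cell cycle moved with the members and further. All 38 replication genes lay above 0, with a median of 0.58 and 19 past 1.5-fold higher (15.5% of all genes tested). They ran from 0.13 for Rfc1 to 1.05 for Pole, with Uhrf1 also past 2-fold at 1.02. All 22 mitosis genes lay above 0, with a median of 0.95 and 7 past 2-fold higher (8.56% of all genes tested). These were led by Cdk1, Ttk, Cdc20, Ccnb1 and Top2a, and the lowest mitosis gene was Ccna2 at 0.51. Of the 33 members, 10 exceeded the replication median and 2 the mitosis median. A higher share of cycling cells and more transcript in each cycling cell cannot be told apart in these libraries. The 11 reference genes had a median of 0.09 and ran from Polr2a at -0.28 to B2m at 2.27.

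Promoter windows from RefSeq on GRCm38.p6, from 250 bases before to 50 bases after a gene's start, were matched to 26 of the 33 members. Rad54b, Rad50, Nbn, Rbbp8, Exo1, Xrcc2 and Fancd2 had no match. The windows were searched on both strands for letters known from cell cycle promoters: CCAAT, the letters bound by NF-Y, TTTGAA, known as the CHR, and the E2F-like TTTGGCGC or TTTCGCGC. CCAAT was in the windows of 18 of the 26 members (69.2%), against 41.1% of the 27025 genes with a window and 42.1% of those tested. The share was similar in other Fanconi genes (63.6%), replication genes (63.3%) and mitosis genes (77.8%). The E2F-like letters were in 1 member, Rad51c (3.85%), against 0.929% of all genes with a window and 1.62% of those tested, and in 11 of 30 replication genes (36.7%). With their last letter left off, they were in 5 members (19.2% against 2.68%, or 4.34% of those tested). TTTGAA was in 2 members (7.69% against 20.2%, or 14.9% of those tested), and in 12 of 18 mitosis genes (66.7%). The NF-κB motif, named for the factor that TNF-α activates, was in 1 member, Atr (3.85% against 5.14%, or 6.32% of those tested). The shortened E2F-like form lies within the longer one, so these 2 counts overlap. A match is a description of letters, and binding was not measured.

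The 4 members with a window and the highest log2 ratios, chosen after the values were seen, are printed to show what these upstream regions hold, as the longest stretch before the RefSeq start that lies outside every exon of the count table, 5′ to 3′ on the gene's own strand, which is minus for all 4. Capitals mark CCAAT or its reverse complement ATTGG, and TTTGAA. The stretches lie at chr1:71103147-71103222 for Bard1, chr11:86201194-86201369 for Brip1, chr6:126939588-126939837 for Rad51ap1 and chr11:101551956-101552148 for Brca1.
Bard1: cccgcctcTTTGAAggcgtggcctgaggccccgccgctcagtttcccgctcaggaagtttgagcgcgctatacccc
Brip1: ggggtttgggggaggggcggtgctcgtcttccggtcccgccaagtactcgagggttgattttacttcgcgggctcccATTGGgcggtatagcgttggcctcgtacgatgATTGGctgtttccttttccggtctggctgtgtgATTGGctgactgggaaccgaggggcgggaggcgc
Rad51ap1: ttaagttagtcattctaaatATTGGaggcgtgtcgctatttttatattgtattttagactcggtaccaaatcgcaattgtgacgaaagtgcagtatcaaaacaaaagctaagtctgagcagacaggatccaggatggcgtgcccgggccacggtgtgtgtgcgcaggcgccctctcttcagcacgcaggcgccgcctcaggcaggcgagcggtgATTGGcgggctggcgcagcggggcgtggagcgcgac
Brca1: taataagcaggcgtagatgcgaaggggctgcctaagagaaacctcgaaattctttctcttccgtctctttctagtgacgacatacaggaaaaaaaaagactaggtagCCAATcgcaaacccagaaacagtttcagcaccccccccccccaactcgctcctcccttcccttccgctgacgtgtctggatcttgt
The stretch of Brip1 holds ATTGG 3 times, that of Rad51ap1 2 times and that of Brca1 holds CCAAT 1 time. Bard1, with the highest ratio of the 33 members, has TTTGAA 1 time in 76 bases and no CCAAT in its whole window.

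Most of these 33 repair genes thus had higher ratios with TNF-α than the genes tested as a whole. The largest ratios were in Bard1, Exo1 and Brip1, and of the 5 most abundant genes Rad50 and Nbn lay near no change, Rbbp8 slightly below it, and Msh6 and Mre11a above it. The limits are those of the design. With 1 library a group, the spread between cultures is unknown, and the intervals of rarely counted members such as Rad51b and Fancf are wide. Cell cycle genes moved with the members, and neither the cause of the shared change nor repair activity was tested. Transcript levels are no measure of protein or of foci at breaks, which were not analysed here.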

How the data were processed

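RNA of 1 control and 1 TNF-α library was sequenced, and the authors deposited the count of reads on each of 49492 genes, not normalized, with exon coordinates, strand and summed exon length. The submitters' processing notes name GRCm38 (mm10). The aligner, counting tool and annotation are not given in the sources used here. By name and coordinates 42988 of 47240 genes matched GENCODE M21 on that build (91.0%). A count of 10 equals 0.224 CPM in the control and 0.187 CPM with TNF-α.

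From these counts, genes with at least 10 counts over both libraries were scaled by TMM in edgeR 4.0.16 (R 4.3.3). TMM was first computed on the full table, and its order was changed after results were seen. Log2 ratios, intervals, RPKM from the deposited lengths, shared exon bases and promoter motifs were computed with pandas 2.3.3, numpy 2.4.6, statsmodels 0.14.6 and scipy 1.17.1, and drawn with matplotlib 3.10.9, under Python 3.11.15. Without replicates no quasi-likelihood test was run, and no p-value is given. Ratios and intervals were tested on simulated data with independent Poisson counts. That simulation could not test reads that are not independent, nor spread between cultures. The named genes are every member, with an interval for those past 1.5-fold and for the highest and lowest of each role, and in each comparison list the highest and lowest gene with at least 100 counts and up to 5 genes past 2-fold. Of markers, the most abundant and those past 2-fold are named, and others were chosen after their values were seen. The members and lists were chosen with earlier results of these data known, and 2 of the planned lists were not used here. Alternatives were other scalings (total counts, DESeq2 1.42.0 size factors, upper quartile), filters, prior counts and folds, removal of ribosomal RNA and mitochondrial genes, halved counts, and a lowess fit (span 0.3) that took out GC content and log2 length. A comparison of the member proteins was not run.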

Additional observations from a re-analysis of the deposited data

How the results depend on the processing

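No paired analysis was possible because control and TNF-α had 1 library apiece. The members' median log2 ratio lay between 0.31 and 0.37 over 12 alternatives, among them 3 chosen after seeing the data (genes with at least 100 counts, members without shared exon bases, and TMM on every gene in the table, which was the scaling used first). Members above 0 numbered 26 to 28, members past 1.5-fold higher 7 to 10, and members past 1.5-fold lower 0. With at least 1 CPM in a library, 2 members were lost. The number past 2-fold higher was 2, or 1, Bard1, when the lower bound of the interval had to pass. With counts divided by 2, the lower bound of Bard1 (0.97) no longer passed 2-fold, and that of Blm (0.576) no longer passed 1.5-fold. The medians of the 12 comparison lists used kept their sign under every alternative run, but corrected for GC and length that of other Fanconi genes went from 0.05 to 0.16, of translesion synthesis from 0.02 to 0.05, of p53 damage targets from 0.04 to 0.07 and of nucleotide excision repair from -0.02 to -0.01, while that of all genes went from 0.0038 to 0.03. Of single members, Rad50 went to -0.0035 under total counts and to -0.0056 under the upper quartile, since a ratio of 0.0033 lies within the shift between scalings. Corrected for length and GC content, Fancm went to 0.0060, Nbn to -0.0064 and Atr to 0.29, outside its interval. Inside their intervals, Fance went from 0.19 to 0.37, Fanca from -0.19 to -0.07 and Xrcc3 from -0.21 to -0.12, and the cause was not tested. Shares of all genes past a fold depended on the floor. Past 1.5-fold, genes with at least 200 counts gave 9.13% higher and 7.48% lower, where all genes tested gave 15.5% and 13.7%. Past 2-fold, at least 1 CPM gave 5.36% higher and 4.22% lower and at least 200 counts 4.01% and 2.87%, where all genes tested gave 8.56% and 6.62%, and no filter gave 10.997% lower. Rarely counted genes have wide counting error. The E2F-like letters were in 0.929% of promoters with 8 letters and 2.68% with 7. With counts divided by 2, the median width of the members' intervals went from 0.38 to 0.54.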
